A study of Mus musculus with 4 samples.

Results

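The 37 genes described here are immediate early genes, members of the activator protein 1 (AP-1) family and heat shock genes. They were listed by name as genes that respond to cell activation or to handling, with earlier results of these data known. A gene was read from the probe sets to which the platform's annotation assigns 1 symbol, and of several such probe sets the brightest on average over the 4 arrays was kept, which is the only measured value in the rule. By this rule 36 of the 37 genes were measured, among 19946 genes in all. *Hspb1* had a further probe set of its own, and *Hspa1b* was represented only by a probe set shared with *Hspa1a*.

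The study compared alveolar macrophages (AM), the phagocytes resident in the air spaces, of WT mice and of mice without TREM-2, a receptor of myeloid cells that signals through an adaptor protein, to learn which transcripts differ between them at baseline. WT mice were C57/Blk6 and TREM2-/- mice (Trem-2-/- hereafter) had been backcrossed 10 times to C57/Blk6. All mice were 8 to 10 wk old and received no treatment, and cells were recovered by bronchoalveolar lavage (BAL). Each genotype had 2 Affymetrix mouse gene arrays, and every array carried RNA pooled from several mice. The deletion was present throughout the mouse and not in AM alone, and WT mice came from a breeder before all mice were bred in a single facility, so the genotypes were separate lines. Neither the number of mice per pool nor whether the pools of a genotype came from different mice is given in the sources used here, so the spread behind each p-value is that between these arrays and may be technical in origin. The interval between lavage and RNA extraction is not given either, so transcripts already present in the lung and transcripts induced while the cells were handled cannot be told apart.

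Immediate early genes are transcribed within minutes of a stimulus, without new protein synthesis, because the factors that start them are already present and need only be modified. Mitogen-activated protein kinases (MAPK) activate the ternary complex partners of serum response factor (SRF), which binds the CArG box, and cyclic AMP and calcium signals act on proteins that bind the cyclic AMP response element (CRE). Many of the products are transcription factors, such as FOS, JUN and EGR proteins, and others end the response again, such as the dual-specificity phosphatases that inactivate MAPK. Heat shock genes are switched on by heat shock factor when proteins misfold. In isolated macrophages these genes are also known to respond to dissociation, adhesion and warming.

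RefSeq promoters of assembly GRCm38.p6 were at hand for 31 of the 37 genes. Each was 300 bases long, with 250 bases before the transcription start and 50 after it. Those of *Sik1*, *Egr1*, *Egr3*, *Fosl1*, *Ier2* and *Myc* were not at hand. The arrays' build was mm9, so these positions were not joined to probe sets. The following are shown because *Fos*, *Egr2* and *Dusp5* stood on the side of WT AM and *Nr4a1* did not, and because the *Hspa1a* and *Hspa1b* promoters show how alike these neighbours are. Capitals mark the CRE core TGACG, or CGTCA on the other strand, in *Fos* and *Nr4a1*, the CArG box, a run of A and T between CC and GG, in *Egr2* and *Dusp5*, and the heat shock motif GAANNTTC in the heat shock genes.
Fos, chr12:85473640-85473939, plus strand: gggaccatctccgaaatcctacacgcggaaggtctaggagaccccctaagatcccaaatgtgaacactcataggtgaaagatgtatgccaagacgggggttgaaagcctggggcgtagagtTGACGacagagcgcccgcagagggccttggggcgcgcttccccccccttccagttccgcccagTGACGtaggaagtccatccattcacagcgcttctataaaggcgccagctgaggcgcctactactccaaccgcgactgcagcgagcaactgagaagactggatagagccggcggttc
Nr4a1, chr15:101266596-101266895, plus strand: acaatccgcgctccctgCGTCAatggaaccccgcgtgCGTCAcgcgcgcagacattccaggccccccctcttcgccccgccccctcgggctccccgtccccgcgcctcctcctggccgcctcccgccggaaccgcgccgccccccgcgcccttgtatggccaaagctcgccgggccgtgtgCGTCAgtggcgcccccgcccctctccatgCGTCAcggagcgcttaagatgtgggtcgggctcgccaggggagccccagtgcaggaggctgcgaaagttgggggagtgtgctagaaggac
Egr2, chr10:67537619-67537918, plus strand: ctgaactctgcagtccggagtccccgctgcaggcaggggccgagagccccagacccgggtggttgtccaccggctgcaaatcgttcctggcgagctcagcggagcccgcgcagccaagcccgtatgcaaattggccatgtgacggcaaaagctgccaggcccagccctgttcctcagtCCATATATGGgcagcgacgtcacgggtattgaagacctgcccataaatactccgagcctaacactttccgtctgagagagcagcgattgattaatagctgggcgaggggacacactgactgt
Dusp5, chr19:53528895-53529194, plus strand: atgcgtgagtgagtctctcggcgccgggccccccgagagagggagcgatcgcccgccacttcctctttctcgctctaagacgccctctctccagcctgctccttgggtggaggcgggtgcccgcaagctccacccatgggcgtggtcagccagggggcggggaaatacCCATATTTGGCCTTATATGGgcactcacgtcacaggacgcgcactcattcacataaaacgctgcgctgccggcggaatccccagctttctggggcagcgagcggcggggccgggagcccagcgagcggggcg
Hspa1a, chr17:34972107-34972406, minus strand: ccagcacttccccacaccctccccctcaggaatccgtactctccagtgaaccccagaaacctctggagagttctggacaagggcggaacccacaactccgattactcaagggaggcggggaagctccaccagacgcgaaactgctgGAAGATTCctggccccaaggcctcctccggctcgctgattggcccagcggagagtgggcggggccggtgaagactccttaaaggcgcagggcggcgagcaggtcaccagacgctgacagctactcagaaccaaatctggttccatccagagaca
Hspa1b, chr17:34959189-34959488, minus strand: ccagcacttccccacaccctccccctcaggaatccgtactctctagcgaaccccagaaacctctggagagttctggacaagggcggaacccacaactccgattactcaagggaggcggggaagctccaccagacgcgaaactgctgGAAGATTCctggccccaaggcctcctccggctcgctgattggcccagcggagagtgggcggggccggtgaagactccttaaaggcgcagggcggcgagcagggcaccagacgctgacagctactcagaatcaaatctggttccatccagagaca

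The *Fos* promoter held the CRE core at -129 and -66 from the start. The *Dusp5* promoter held a pair of adjoining CArG boxes from -82 and -72. The *Egr2* promoter shown, of 5 listed for that gene, held 1 CArG box from -72. Both of the latter also held the CRE core, left in lower case, at -111 and -55 in *Egr2* and at -55 in *Dusp5*. The CRE core was present in 21 of the 39 promoters of these genes (53.8%) and in 20.8% of all 32851 promoters. The CArG box was present in 6 (15.4%), which belong to *Egr2*, *Dusp5* and *Zfp36*, against 1.63% of all promoters. The heat shock motif GAANNTTC was present in 7 (17.9%) against 7.86%, among them those of *Hspa1a*, *Hspa1b*, *Hsph1* and *Hspb1*, while its other form TTCNNGAA was present in 3 (7.69%) against 8.52%. The EGR motif GCGNGGGCG, on either strand, was present in 11 (28.2%) against 5.55%. The full CRE TGACGTCA, which contains the core, was present in 3 promoters (7.69%, against 1.79%), and the AP-1 motif TGANTCA in 0 against 7.81% of all. The genes were gathered for their response to stimuli, several promoters of a gene overlap, and a match is a string of letters and not a measured site. The *Hspa1a* and *Hspa1b* promoters were identical at 296 of 300 positions.

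Values are log2 signals after robust multi-array average (RMA) normalization, and a difference is the mean of Trem-2-/- AM minus the mean of WT AM on that scale. Genotypes were compared with limma over all 19946 genes, and a gene was called at a Benjamini-Hochberg adjusted p below 0.05. Arrays of unlike genotype correlated across probe sets at r of 0.992 to 0.993, and those of like genotype at 0.994 (WT) and 0.995 (Trem-2-/-). *Trem2*, the targeted gene, had log2 values of 9.58 and 9.74 on the WT arrays and of 7.64 and 7.45 on the Trem-2-/- arrays, as the labels say. Of 17 alveolar macrophage markers 15, among them *Siglecf*, *Marco* and *Pparg*, read above the upper quartile of all probe sets (8.13 to 8.17) on every array. The other 2 did not, with *Car4* at 5.81 and 6.10 in WT and 6.85 and 6.85 in Trem-2-/- AM and *Cidec* at 7.64 and 7.64 against 7.89 and 7.81.

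*Sik1*, which encodes a kinase that restrains CREB-dependent transcription, fell in Trem-2-/- AM and was the only gene of the 36 that passed the test. In this direction 0.135% of all 19946 genes were called, against 1 of these 36 (2.78%). None of the 36 was called as higher, against 0.431% of all genes. At an unadjusted p below 0.05 in limma, 9 of the 36 had a lower mean in Trem-2-/- AM (25%, against 6.90% of all genes) and 3 a higher one (8.33%, against 4.64%). The genes with the next largest differences were *Egr2*, *Myc*, *Fos* and *Atf3* toward WT AM and *Gadd45a* toward Trem-2-/- AM, with adjusted p from 0.058 to 0.094. The heat shock genes differed by 0.09 or less in either direction in the probe sets kept for them.

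**Figure D1:**
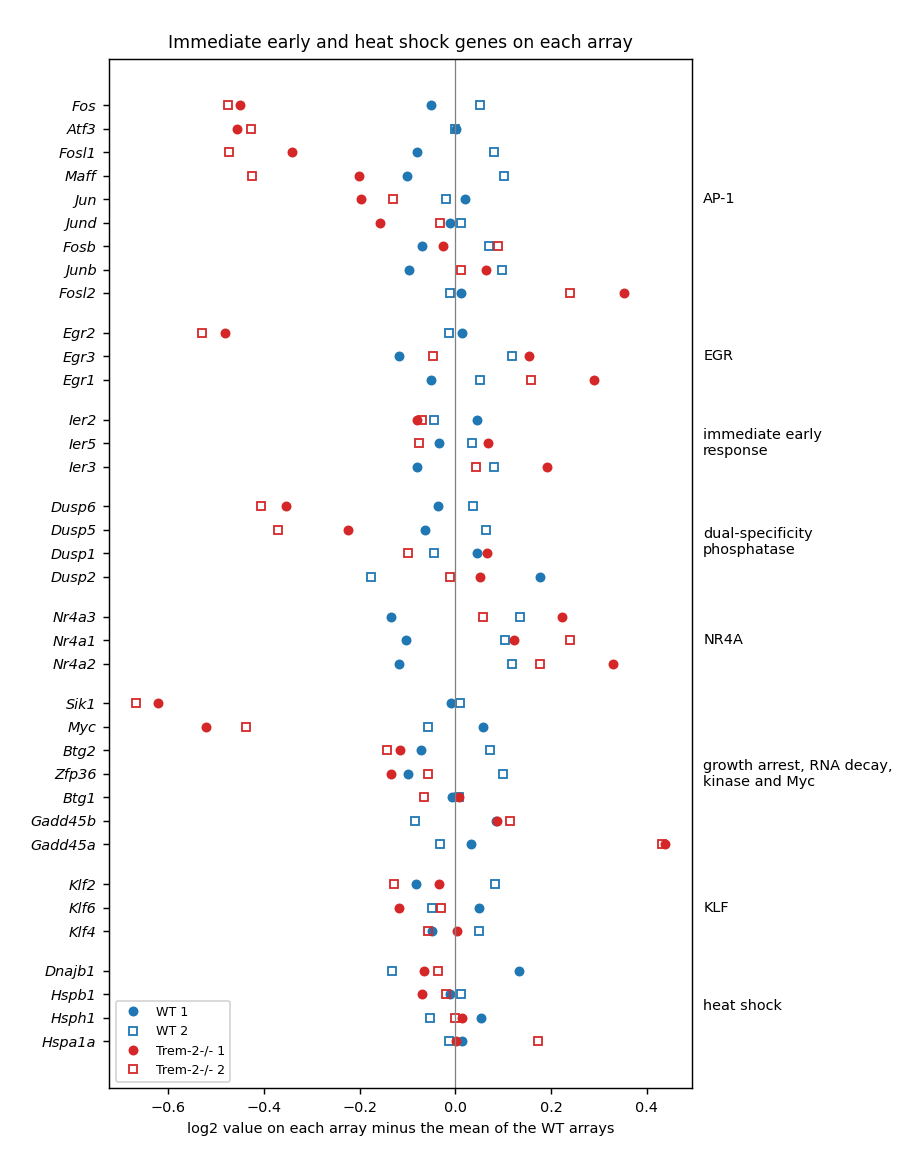
Log2 value of each of the 36 genes on each array, minus the mean of the WT arrays for that gene (x axis), with genes grouped by role (y axis). Blue marks are WT arrays and red marks Trem-2-/- arrays, filled for replicate 1 and open for replicate 2. The red marks of *Sik1* lie at the far left and those of *Gadd45a* at the far right.

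*Sik1* had log2 values of 7.59 and 7.61 on the WT arrays and of 6.98 and 6.93 on the Trem-2-/- arrays. The arrays of a genotype lay within 0.05 of each other, and the genotypes did not overlap. The difference was -0.64 (standard error 0.07, 95% interval -0.82 to -0.47, adjusted p = 0.025 from limma), which is 1.56-fold higher signal in WT AM. It was the 31st largest decrease of all genes. The call was lost when any 1 of the 4 arrays was left out (adjusted p 0.12 to 0.21 from limma), with the difference then between -0.67 and -0.62. *Sik1* lies on chromosome 17, which also carries *Trem2*. On it 1.92% of 936 tested genes were called in either direction, against 0.431% of all genes higher and 0.135% lower. In gene order 344 tested genes lie between *Sik1* and *Trem2*, and none of the 10 tested neighbours on either side of *Sik1* was called. Few calls are expected among so few genes at that share, and the part of the targeted region in *Sik1* was not tested. *Dusp1*, *Ier3* and *Hspa1a*, also on chromosome 17, did not pass the test.

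Of the 9 AP-1 genes, which encode FOS, JUN, ATF and small MAF proteins that bind DNA as dimers, none passed the test, and at an unadjusted p below 0.05 in limma 4 of the 9 lay toward WT AM (against 6.90% of all genes) and 1, *Fosl2*, toward Trem-2-/- AM (against 4.64%). *Fos* had log2 values of 8.76 and 8.86 in WT AM and of 8.36 and 8.33 in Trem-2-/- AM. Both Trem-2-/- arrays lay below both WT arrays, by more than either genotype's replicates differed. The difference was -0.46 (standard error 0.08, adjusted p = 0.089 from limma). WT AM thus had 1.38-fold more signal. *Atf3*, a stress-induced repressor of inflammatory genes, read 10.42 and 10.42 in WT AM against 9.96 and 9.99 in Trem-2-/- AM, a difference of -0.44 (standard error 0.07, adjusted p = 0.080 from limma). The replicates of *Atf3* were the closest of all these genes, at 0.03 or less apart. *Fosl1*, encoding FRA-1, read 6.52 and 6.68 against 6.26 and 6.13 (difference -0.41, adjusted p = 0.18 from limma), and *Maff*, a small MAF protein without an activation domain, read 7.28 and 7.48 against 7.18 and 6.96 (-0.31, adjusted p = 0.38 from limma).

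*Fosl2*, encoding FRA-2, differed in the other direction from *Fos* and *Fosl1*, with 8.75 and 8.72 in WT AM and 9.09 and 8.98 in Trem-2-/- AM, a difference of 0.30 (standard error 0.08, adjusted p = 0.25 from limma). The JUN genes and *Fosb* stayed within 0.17 of 0. *Jun* differed by -0.16, *Jund* by -0.09, *Junb* by 0.04 and *Fosb* by 0.03, with adjusted p from 0.47 to 0.92 in limma. The WT arrays of *Junb*, at 8.29 and 8.48, differed by more than the genotypes did.

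None of the 3 EGR genes, zinc finger factors induced through SRF, passed the test, and their differences had unlike signs. *Egr2*, which is also needed for the alveolar macrophage programme, had log2 values of 10.32 and 10.30 in WT AM and of 9.83 and 9.78 in Trem-2-/- AM, without overlap. Its difference of -0.51 (standard error 0.07, 95% interval -0.68 to -0.33, adjusted p = 0.058 from limma) is 1.42-fold higher signal in WT AM and just missed the threshold. *Egr1* read 5.51 and 5.61 in WT AM and 5.85 and 5.72 in Trem-2-/- AM, a difference of 0.22 in the other direction (adjusted p = 0.40 from limma). These values lie below the median of all probe sets (5.84 to 5.86) on every array, so *Egr1* was dim and its sign is uncertain. *Egr3* read 6.65 and 6.88 against 6.92 and 6.72 and overlapped between genotypes.

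None of the 4 dual-specificity phosphatases passed the test, and the largest differences were those of *Dusp6* and *Dusp5*. *Dusp6*, the cytoplasmic ERK phosphatase, read 9.70 and 9.77 in WT AM and 9.38 and 9.33 in Trem-2-/- AM (difference -0.38, standard error 0.07, adjusted p = 0.14 from limma). *Dusp5*, its nuclear counterpart, read 7.90 and 8.02 against 7.73 and 7.59 (-0.30, standard error 0.09, adjusted p = 0.31 from limma). For both genes the Trem-2-/- arrays lay below the WT arrays. *Dusp1*, which acts mainly on p38 and JNK, differed by -0.02 (95% interval -0.23 to 0.20) and *Dusp2* by 0.02 (95% interval -0.28 to 0.32), and both overlapped between genotypes. Whether *Dusp5* and *Dusp6* differ from *Dusp1* and *Dusp2* in this was not tested. Dual-specificity phosphatases outside these 4 had differences of both signs, and none passed the test. *Dusp14* differed by 0.17, *Dusp16* by 0.14, *Dusp4* by 0.13, *Dusp7* by 0.04, *Dusp10* by -0.10 and *Dusp8* by -0.11.

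**Figure D2:**
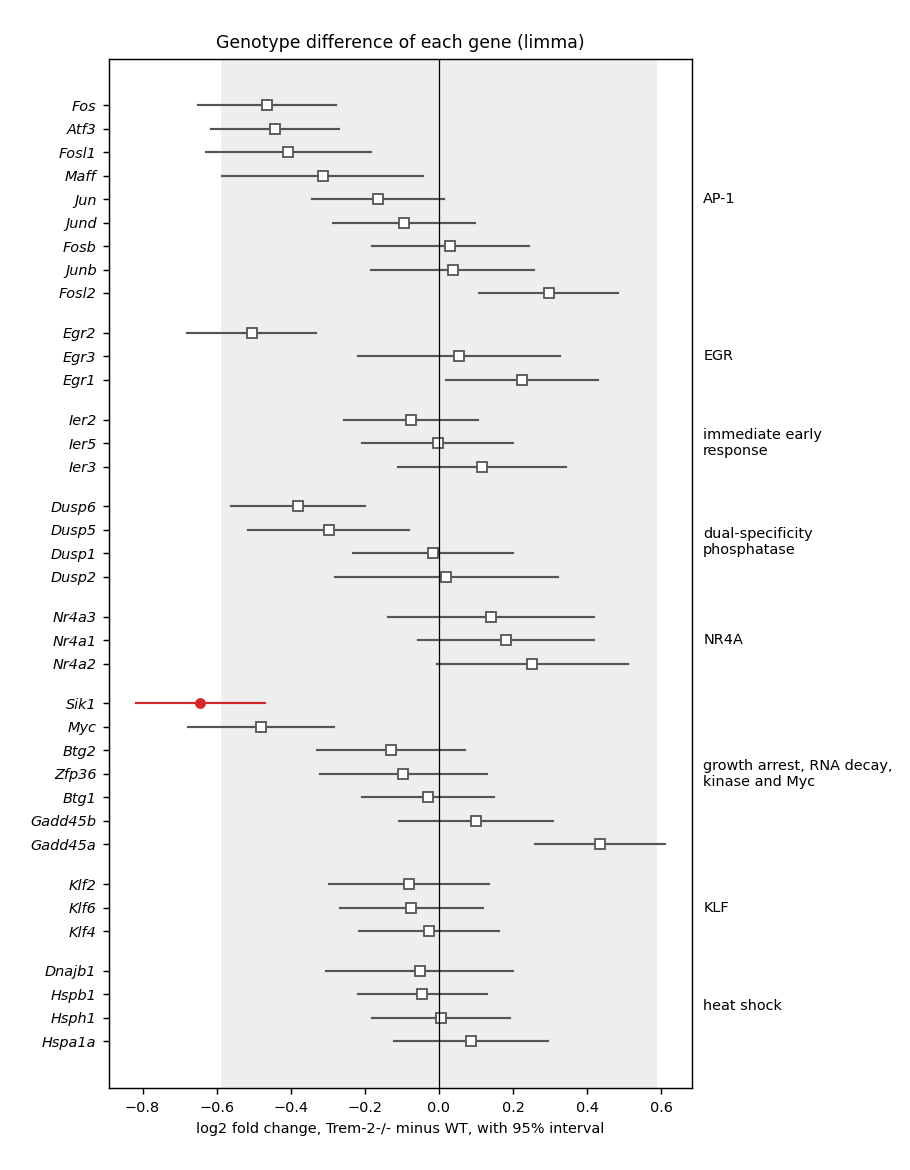
Difference in log2 signal between Trem-2-/- and WT AM for each of the 36 genes (x axis, Trem-2-/- minus WT), with genes grouped by role (y axis) and 2 arrays per genotype. Points are limma estimates and bars their 95% intervals, the filled red circle is *Sik1*, the only gene with an adjusted p below 0.05, open squares are the other genes and the grey band spans a 1.5-fold difference in either direction.

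*Myc*, the growth-promoting transcription factor, read 8.75 and 8.63 in WT AM and 8.17 and 8.25 in Trem-2-/- AM, a difference of -0.48 (standard error 0.08, adjusted p = 0.094 from limma), with 1.39-fold more signal in WT AM. *Gadd45a*, a growth arrest and DNA damage gene that binds MAP3K4, read 8.19 and 8.13 in WT AM and 8.60 and 8.59 in Trem-2-/- AM. Its difference of 0.43 (standard error 0.07, adjusted p = 0.091 from limma) was the largest toward Trem-2-/- AM among the 36 genes, and the genotypes did not overlap. SAM, the permutation-based test for arrays that the methods name, called *Gadd45a* as higher and *Sik1* as lower at a 5% false-discovery rate and no other of the 36 genes, against 0.857% of all genes called as higher and 0.0953% as lower. *Gadd45b*, its relative, differed by 0.10, *Btg1* and *Btg2*, antiproliferative genes, by -0.03 and -0.13, and *Zfp36*, encoding the mRNA decay factor tristetraprolin, by -0.10, with adjusted p from 0.61 to 0.91 in limma.

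The nuclear receptors of the NR4A family, which act without a known hormone, all had a higher mean in Trem-2-/- AM and none passed the test. *Nr4a2* differed by 0.25, *Nr4a1*, whose product is needed for patrolling monocytes, by 0.18 and *Nr4a3* by 0.14, with adjusted p from 0.45 to 0.70 in limma. *Nr4a1* read 7.76 and 7.96 in WT AM and 7.98 and 8.10 in Trem-2-/- AM, so WT replicate 2 and Trem-2-/- replicate 1 were only 0.02 apart. *Nr4a2* and *Nr4a3* were dim, below the median of all probe sets (5.84 to 5.86) on every array. The KLF genes encode zinc finger factors, of which *Klf2* restrains macrophage activation and *Klf4* promotes monocyte differentiation, and they differed by -0.08 (*Klf2*), -0.07 (*Klf6*) and -0.03 (*Klf4*) and all overlapped. The genes *Ier2*, *Ier3* and *Ier5* differed by -0.08, 0.12 and -0.0036.

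None of the 4 heat shock genes with a probe set of their own passed the test. *Hspa1a*, the inducible HSP70, read 6.85 and 6.82 in WT AM and 6.84 and 7.01 in Trem-2-/- AM (difference 0.09, 95% interval -0.12 to 0.30). *Dnajb1*, its HSP40 co-chaperone, read 8.50 and 8.23 against 8.30 and 8.33 (-0.05, 95% interval -0.30 to 0.20), and WT replicates differed by 0.27. *Hsph1*, the nucleotide exchange factor HSP105, differed by 0.0059. *Hspb1*, the small heat shock protein HSP25, differed by -0.04. It was the only one of the 4 whose arrays did not overlap, at 5.674 and 5.696 in WT AM against 5.615 and 5.666 in Trem-2-/- AM, a narrow gap. Its other probe set differed by -0.12. Both probe sets of *Hspb1* were dim, below the median of all probe sets (5.84 to 5.86) on every array. The intervals of all 4 lay within a 1.5-fold difference in either direction. The probe set shared by *Hspa1a* and *Hspa1b*, which are near copies, read 8.32 and 8.21 in WT AM and 8.61 and 8.56 in Trem-2-/- AM. It did not overlap between genotypes, at a difference of 0.31 (95% interval 0.10 to 0.53, adjusted p = 0.45 from limma over all 35557 rows), and it cannot be told which of the copies it reports.

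For scale, the arrays of a genotype differed by up to 0.35 (*Dusp2* in WT AM) for a single gene, with a median of 0.10 in WT and 0.08 in Trem-2-/- AM against 0.09 and 0.09 over all genes. In 14 of the 36 genes (38.9%) the genotype difference was larger than both replicate differences, as it was in 30.1% of all genes. All Trem-2-/- arrays lay below all WT arrays for 14 of the 36 (38.9%, against 25.4% of all genes) and above them for 6 (16.7%, against 17.4%). The median difference of the 36 genes was -0.04, against -0.02 for all genes, and the median absolute difference 0.11 against 0.08. For 29 of the 36 the 95% interval lay within a 1.5-fold difference in either direction, and the other 7 were *Fos*, *Fosl1*, *Atf3*, *Egr2*, *Myc*, *Sik1* and *Gadd45a*. Of the 36 genes 22 read higher on WT replicate 2 than on WT replicate 1 (61.1%, against 47.1% of all genes), and 13 read higher on Trem-2-/- replicate 2 than on Trem-2-/- replicate 1 (36.1%, against 47.5%).

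**Figure D3:**
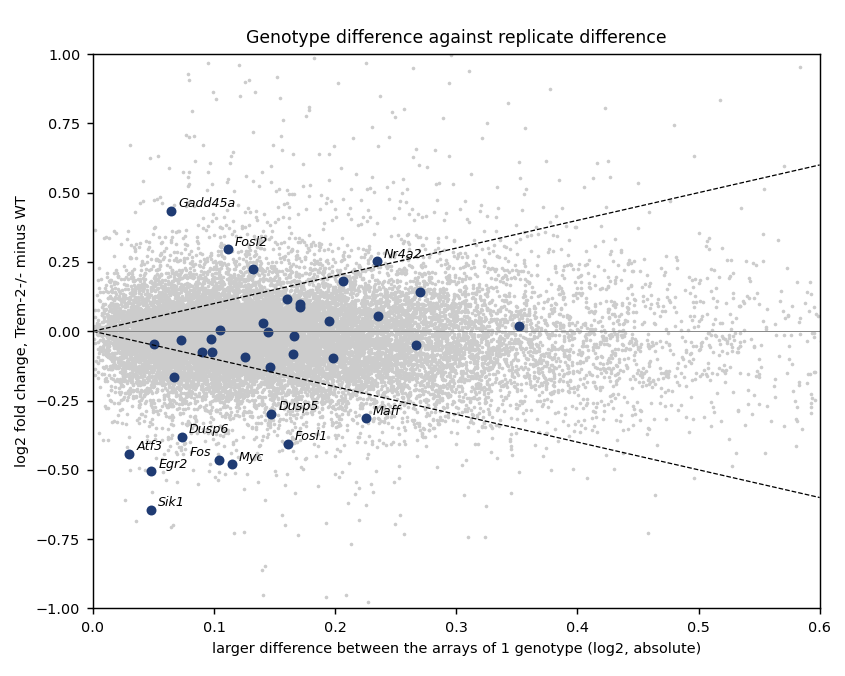
Log2 fold change from WT to Trem-2-/- AM (y axis) against the larger of the absolute log2 differences between the arrays of 1 genotype (x axis). Grey points are all genes, of which 149 lie outside the axes, blue points the 36 genes, and beyond the dashed lines the genotype difference exceeds both replicate differences; *Sik1*, *Egr2* and *Atf3* lie far below the lower line at replicate differences of 0.05 or less.

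The modelling of the spread and the filter on dim genes changed the number of calls. With an intensity trend and robust variance in limma, 7 of the 36 genes were called as lower (19.4%, against 1.45% of all genes), namely *Sik1*, *Egr2*, *Atf3*, *Fos*, *Myc*, *Dusp6* and *Fosl1*, and *Gadd45a* and *Fosl2* as higher (5.56%, against 1.90%). Among the 30 genes with a mean log2 value of at least 6, a fit restricted to such genes called the same 7 as lower (23.3%, against 1.39%) and *Gadd45a* as higher (3.33%, against 1.92%). At p below 0.05 without adjustment, the methods' t-test gave 6 lower and 2 higher (*Gadd45a* and *Fosl2*), against 5.27% and 3.92% of all genes. With every row tested as its own probe set no gene of the 36 was called, against 0.00562% of rows lower and 0.0591% higher, nor was one at a minimum log2 fold change of 1, against 0.0301% of genes lower and 0.180% higher. *Sik1* alone was called in fits with a replicate block, quantile normalization, median centring or averaged probe sets, where 0.155%, 0.150%, 0.125% and 0.140% of all genes were lower and 0.491%, 0.411%, 0.441% and 0.431% higher.

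Among 29 other immediate early and primary response genes, 2 rose (6.9%, against 0.431% of all genes), 1 fell (3.45%, against 0.135%) and 26 did not pass. *Ptgs2*, encoding cyclooxygenase-2, rose from 5.77 and 5.53 to 7.75 and 7.78 (difference 2.12, adjusted p = 0.00088 from limma), and *Ccn1*, a matricellular protein gene and classical SRF target, rose from 6.66 and 6.53 to 7.40 and 7.52 (0.86, adjusted p = 0.019 from limma). *Rgs1*, a regulator of chemokine receptor signalling, fell from 8.85 and 8.98 to 7.71 and 7.85 (-1.13, adjusted p = 0.0078 from limma). *Plk2* and *Id1* had differences of -0.40 and -0.39 without passing (adjusted p = 0.13 and 0.11 from limma). The median of this list was 0.01.

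None of 20 measured kinases and factors upstream, such as *Srf* (difference 0.01), *Mapk14*, encoding p38 alpha (0.13), and *Map2k6*, encoding its activator MKK6 (-0.13), none of 15 dimer partners of AP-1 and none of 14 MAPK feedback inhibitors passed the test. The feedback inhibitor *Spred2*, which blocks RAF activation, had the largest difference of these lists, from 8.91 and 8.89 in WT AM to 8.20 and 8.43 in Trem-2-/- AM (-0.58, adjusted p = 0.089 from limma), and *Dusp14* differed by 0.17. Of the AP-1 partners, *Batf2* differed by 0.29 and *Batf3* by -0.25. None of 20 relatives of the listed genes, such as *Mycl* (-0.28) and *Klf3* (0.19), and none of 26 other heat shock and chaperone genes passed. Of the latter, *Chordc1*, an HSP90 co-chaperone, differed by 0.27 and *Hspb8*, a small heat shock protein, by 0.30. The medians of these 5 lists lay between 0.01 and 0.04, against -0.02 for all genes.

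**Figure D4:**
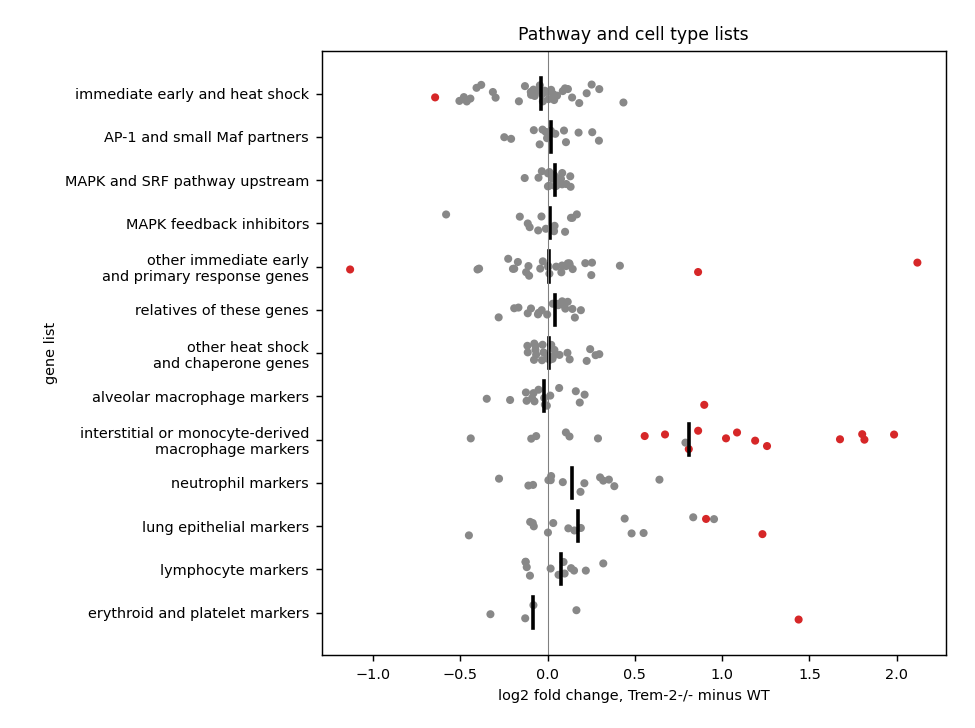
Log2 fold change from WT to Trem-2-/- AM (x axis) of the measured members of each gene list (y axis). Each point is a gene, red if its adjusted p from limma was below 0.05 and grey otherwise, and black bars are medians, -0.04 for the immediate early and heat shock genes and 0.81 for markers of interstitial or monocyte-derived macrophages.

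Markers listed for other cells moved between the genotypes, and many cells express immediate early genes. Of 19 markers of interstitial or monocyte-derived macrophages 12 rose and none fell, led by *Pf4* (difference 1.98), *C1qc* (1.81), *C1qb* (1.80) and *Apoe* (1.67), with the list's mean log2 level at 7.78 and 7.79 on the WT arrays and at 8.59 and 8.61 on the Trem-2-/- arrays. The study took up C1q on these arrays, so the count called as higher is not independent evidence of its direction. Beyond the arrays, the study reported higher *C1qb* by RT-PCR and more C1q protein inside the cells by flow cytometry in Trem-2-/- AM. It attributed C1q to the AM themselves. Of 16 lung epithelial markers 2 were called as higher (12.5%, against 0.431% of all genes), *Cldn18* and *Scgb1a1*. The mean level was 6.08 and 6.07 against 6.41 and 6.38, and 12 of the 16 had a higher mean in Trem-2-/- AM. The other 4 lay lower without overlap, namely *Cdh1* (-0.45, adjusted p = 0.16 from limma), *Sftpb* (-0.10), *Epcam* (-0.09) and *Sftpa1* (-0.08). None of 14 neutrophil markers passed in limma, with mean levels of 5.72 and 5.75 against 5.88 and 5.88. At an unadjusted p below 0.05 in limma, 5 lay toward Trem-2-/- AM (against 4.64% of all genes) and 0 toward WT AM (against 6.90%). SAM called 1 as higher, against 0.857% of all genes. The largest differences toward Trem-2-/- AM were those of *Csf3r* (0.64, adjusted p = 0.070 from limma) and *Lcn2* (0.38, adjusted p = 0.16 from limma). In the other direction lay 3 of the 14, namely *Cxcr2* (-0.28, adjusted p = 0.55 from limma), *Elane* (-0.11) and *Retnlg* (-0.08). Of the 14, *Ly6g*, *Ngp* and *Retnlg* read below the lower quartile of all probe sets (4.39 to 4.40) on every array, and the other 11, such as *Mmp8* and *S100a8*, lay between the quartiles on at least 1 array. None of 12 lymphocyte markers passed (mean level 4.83 and 4.78 against 4.88 and 4.83). Of 5 erythroid and platelet markers 1 rose, *Alas2* (20%, against 0.431% of all genes), with a difference of 1.44. The list's mean levels were 5.66 and 5.69 against 5.91 and 5.87, but its median difference was -0.08. Lower means in Trem-2-/- AM were those of *Gp9* (-0.33, adjusted p = 0.18 from limma), *Itga2b* (-0.13) and *Slc4a1* (-0.08). Of the 17 alveolar macrophage markers 1 rose, *Car4* (5.88%, against 0.431%), with mean levels of 11.26 and 11.28 against 11.31 and 11.27. A lower mean in Trem-2-/- AM was found for 11 of the 17, led by *Krt79* (-0.35, adjusted p = 0.21 from limma) and *Siglecf* (-0.21, adjusted p = 0.38 from limma). Both Trem-2-/- arrays lay below both WT arrays for 9 (against 25.4% of all genes) and above them for 5 (against 17.4%). The part of these cells in the values of *Sik1*, *Egr2* or *Gadd45a* was not tested, and in RNA of whole cell pools fewer cells that use a gene and less RNA per cell cannot be told apart.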

How the data were processed

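RNA of pooled AM was hybridized to 4 Affymetrix mouse gene arrays, 2 for WT and 2 for Trem-2-/- mice. The values deposited by the authors are log2 signals of probe sets after RMA, which equalizes the arrays' distributions. Build mm9 and RMA, with no version, are named in the submitters' processing notes. Scanner intensities were not analysed here, so neither the background correction nor detection could be examined, and the number of arrays limits the precision.

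All 4 value columns were used, for 35557 rows. The platform's annotation gives 1 symbol to 21797 of them, several to 1613 and none here to 12147. Several probe sets were found for 999 genes, of which the brightest on average was kept, giving 19946 genes, of which 19864 matched RefSeq genes of GRCm38.p6 by identifier, used for chromosomes and gene order.

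Differences between genotypes were tested two-sided in limma 3.58.1 (lmFit, eBayes) under R 4.3.3. P-values were adjusted by Benjamini-Hochberg over all genes, and replicate number was not a term. The methods name SAM, which was written out with all 6 assignments of the arrays and run as an alternative, because 6 assignments give few null values. For a single gene, the smallest two-sided p of an exact permutation test is 0.333 in this design. The scripts were tested on simulated data with 200 changed genes. Of the genes called there, 11.98% were false in limma and 6.74% in SAM, more than the rates set for these tests. At a simulated log2 change of 0.5, limma recovered 86.6% of the genes so changed and SAM 70.1%. At changes of 1 and 2 both recovered 100%. The genes and the pathway and marker lists were chosen with earlier results of these data known. Described in full are called genes, *Fos*, *Egr1* and *Sik1*, and up to 10 further genes with the largest non-overlapping differences; other genes may be named with their values, and from each other list the called genes and the largest differences are named. Added to these after their values were seen were *Srf*, the markers of alveolar macrophages and neutrophils named beside quartiles, and cell markers named as lower in Trem-2-/- AM. Alternatives to this fit comprised SAM, a t-test, robust variance with an intensity trend, a replicate block, quantile normalization, median centring, removal of genes with a mean log2 below 6, averaging of probe sets, every row as a probe set, a minimum log2 change of 1 and omission of each array.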

Additional observations from a re-analysis of the deposited data

How the results depend on the processing

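The count of listed genes called in limma was 0 higher and 1 lower, among 86 higher and 27 lower over all genes. It became 1 higher under SAM (171 over all genes), 2 higher and 7 lower with an intensity trend and robust variance (379 and 290), and 1 higher and 7 lower among genes with a mean log2 of 6 or more (207 and 150). The last of these tests fewer genes, and otherwise the cause was not tested. The methods' t-test gave 2 higher and 6 lower at an unadjusted p below 0.05 (782 and 1052) and 0 and 0 after Benjamini-Hochberg (0 and 0). All rows as probe sets gave 0 lower (21 and 2), and a minimum log2 fold change of 1 gave 0 lower (36 and 6). Without 1 array the count was 0 to 0 lower (22 to 43 higher and 4 to 7 lower over all genes). In each of these 4 fits the lone array of a genotype is assumed to vary like the others.

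The labels do not say whether the replicate numbers pair the arrays. Deviations of same-numbered arrays correlated at -0.05 over all genes, which cannot settle it. With the replicate block 1 listed gene was lower, *Sik1* (adjusted p = 0.030 from limma), with 98 genes higher and 31 lower in all. Quantile normalization, median centring and the mean of probe sets left the listed count at 0 higher and 1 lower. Differences near 0 changed sign with *Hsph1* at -0.011 under quantile normalization and *Ier5* at 0.0034 under median centring. With 1 array left out, the differences ran from -0.066 to 0.0063 for *Btg1*, -0.18 to 0.082 for *Dnajb1*, -0.10 to 0.067 for *Dusp1*, -0.16 to 0.20 for *Dusp2*, -0.064 to 0.17 for *Egr3*, -0.039 to 0.10 for *Fosb*, -0.046 to 0.058 for *Hsph1*, -0.076 to 0.069 for *Ier5*, -0.060 to 0.13 for *Junb*, -0.16 to 0.0016 for *Klf2*, -0.076 to 0.021 for *Klf4* and -0.20 to 0.0028 for *Zfp36*. No detection call was at hand, so dim genes such as *Egr1*, *Nr4a2* and *Nr4a3* may hide differences.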
